A study of Ovis aries with 15 samples.

Results

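The H3K4me3-only regions of sheep perirenal fat are 14724 autosomal regions of the H3K4me3 table that shared no base with a region of H3K27ac or of H3K27me3 and were not among the 1000 widest autosomal H3K4me3 regions free of H3K27me3. They made up 26.2% of the 56169 autosomal regions, and 22.2% of all 66207 regions of the table. Of the other autosomal regions, 28097 overlapped H3K27ac only, 9857 overlapped H3K27me3 only, 2491 overlapped both marks and 1000 were the widest. The rule used position and width, and no read count.

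H3K4me3 was immunoprecipitated from the perirenal fat of 3 wild-type merino lambs (lambs 1 to 3) and 2 wild-type merino fetuses (fetuses 1 and 2), an unmanipulated depot sampled after and before birth. The lambs were 80 days old by the series design and 89 ± 7 days by the growth protocol, and the fetuses were at 132 days of gestation (term 150 ± 3 days). The labels describe ewes fed to maintenance and name no treatment. The lamb titles carry a tag, VEH, that the fetal titles lack. Its meaning is not stated, and whatever it stands for cannot be told apart from stage. H3K27ac and H3K27me3, whose regions the rule sets against those of H3K4me3, were measured in animals 1 and 2 of each stage and not in lamb 3.

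H3K4me3 is the trimethylated form of lysine 4 on histone H3. It is laid down chiefly by the SET1 and MLL methyltransferase complexes at the starts of genes that are active or poised, and it forms the widest domains at strongly transcribed genes. H3K27ac, the acetylated form of lysine 27, accompanies active promoters and enhancers, and H3K27me3, placed by Polycomb repressive complex 2, accompanies silent developmental genes. Weak and narrow regions of a mark are where a ChIP library stands nearest to its unenriched level, and no input was subtracted from these counts. The values below describe how dense, how wide and how alike these regions were in each library.

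The libraries held 41765806, 13090548 and 12482468 reads in H3K4me3 regions in lambs 1, 2 and 3, and 37544047 and 58333449 reads in fetuses 1 and 2. Lambs 2 and 3 were thus the shallowest libraries. A single region took 3.57% to 4.17% of the reads of each lamb, against 1.36% and 0.364% of those of the fetuses. Of 6 adipocyte genes checked for the tissue, 5 were in the deposited H3K4me3 promoter table (ADIPOQ, PLIN1, FABP4, LPL and CIDEC, but not LIPE). Their median rank among 12922 promoters was at percentile 50.3, 58.6 and 45.7 in the lambs and 70.8 and 77.5 in the fetuses. The median percentile of the 4 brown adipocyte genes was 38.9, 38.6 and 35.4 in lambs and 59.1 and 57.1 in fetuses. The median of 3 listed macrophage genes of 4 lay the other way, at 45.0, 61.1 and 51.2 in lambs and 28.5 and 28.7 in fetuses. So did the median of 4 listed lymphocyte genes of 5, at 29.0, 29.0 and 25.4 in lambs and 17.3 and 18.2 in fetuses. Single genes did not all follow these medians: lamb and fetal percentiles overlapped for FABP4, LPL, UCP1, CIDEA, CD14 and CD2. The groups overlapped for the 3 listed of 4 endothelial genes, 2 of 4 of skeletal muscle and 1 of 3 of adrenal. In such bulk tissue, a change in the share of cells that carry a mark and a change of the mark within cells cannot be told apart, and the part of cell makeup in the results below was not tested.

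The H3K4me3-only regions were narrow. Their median width was 1000 bp (quartiles 800 and 1300 bp, range 550 to 5950 bp), against 1350 bp (quartiles 1000 and 2350 bp) for regions that overlapped H3K27ac only and 7300 bp for the widest regions. Region edges lie on a grid of 50 bp. The H3K4me3-only regions covered 17.2 Mb, or 15.2% of the bases in the table. Only 1292 of them (8.77%) were wider than 2000 bp.

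The share of reads in these regions overlapped between the stages. H3K4me3-only regions held 9.96%, 9.83% and 9.20% of the table's reads in lambs 1 to 3, against 9.56% and 7.69% in fetuses 1 and 2. Fetus 2 was the lowest, and the other fetus lay within the lamb range, so the groups overlapped. The means were 9.66% ± 0.405 in lambs (SD, n = 3) and 8.63% ± 1.32 in fetuses (SD, n = 2), a difference of 1.04 percentage points (exact two-sided permutation p = 0.4). With 3 against 2 libraries this test cannot go below 0.2. The difference was 1.97 points without fetus 1 and 0.101 points without fetus 2.

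Read density is given here as reads per kb of region per 1000000 reads in the H3K4me3 table. The median density over the H3K4me3-only regions was 5.18, 5.35 and 4.91 in lambs 1 to 3, against 4.58 and 3.49 in fetuses 1 and 2. All 3 lambs lay above both fetuses on this scale, which rests on each library's own table total. A median region held 211, 70 and 60 reads in the lambs and 155 and 192 reads in the fetuses. Set against regions that overlapped H3K27ac only, whose median density was 5.19, 5.23 and 5.61 in lambs and 4.38 and 4.43 in fetuses, the ratio is free of depth and scaling. This ratio was 0.998, 1.02 and 0.876 in lambs and 1.04 and 0.789 in fetuses. The groups overlapped, with the highest and the lowest ratio both in fetuses, and the difference of 0.0486 gave an exact permutation p of 0.8. Its sign turned without fetus 2 (-0.0794) and among regions of at most 1000 bp (-0.0476), and it was 0.177 without fetus 1. With mean in place of median densities the difference was 0.285 (exact permutation p = 0.2).

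**Figure D1:**
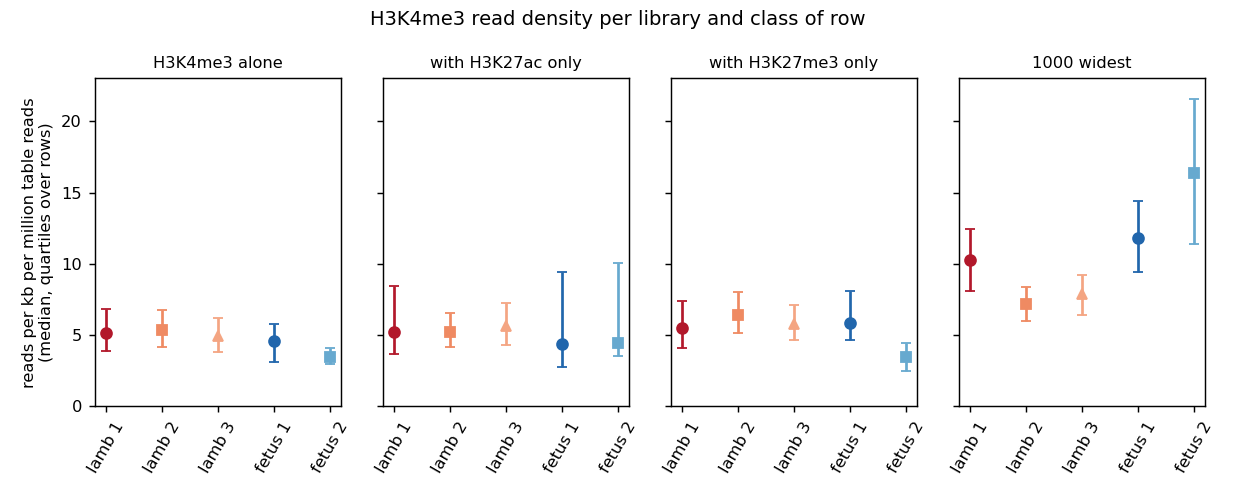
Median H3K4me3 read density (points; bars span the quartiles over regions) in each library, in reads per kb per 1000000 table reads, for H3K4me3-only regions, regions overlapping only H3K27ac or only H3K27me3, and the 1000 widest regions. The H3K4me3-only medians lie between 3.49 and 5.35 in all 5 libraries, while those of the widest regions run from 7.16 in lamb 2 to 16.3 in fetus 2.

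The contrast between strong and weak H3K4me3 regions was lower in lambs. The median density of the widest regions was 10.3, 7.16 and 7.89 in lambs, against 11.8 and 16.3 in fetuses. Divided by the median of the H3K4me3-only regions of the same library, this gave 1.99, 1.34 and 1.60 in lambs and 2.57 and 4.68 in fetuses. Every lamb lay below both fetuses, and the shallow lambs 2 and 3 were the lowest of the 5 libraries. The means were 1.64 ± 0.327 (SD, n = 3) and 3.63 ± 1.49 (SD, n = 2), a difference of -1.98 (exact permutation p = 0.2, the smallest that 3 against 2 allows). The difference was -0.930 without fetus 2 and -3.04 without fetus 1.

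The same contrast appears region by region. The lower quartile of the widest regions' density was reached by 12.0%, 37.1% and 21.1% of H3K4me3-only regions in lambs 1 to 3, against 6.93% and 1.85% in fetuses 1 and 2. Lamb 2 was the highest and fetus 2 the lowest, and the groups did not overlap. This was not particular to the class. Of regions overlapping H3K27ac only, 26.9%, 34.3% and 36.4% reached it in lambs, against 24.9% and 22.1% in fetuses, also without overlap. The density to reach was itself lower in every lamb than in either fetus. Of the 14724 regions, 8264 (56.1%) reached it in no library and 188 (1.28%) reached it in all 5. Among regions overlapping H3K27ac only, 4756 (16.9%) reached it in all 5 libraries.

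The wider regions of the class were denser in every library. In the 4364 narrowest regions (550 to 800 bp) the median was 4.76, 5.35 and 4.81 in lambs 1 to 3, against 4.0 and 3.24 in fetuses 1 and 2. In the 979 regions of 2050 to 3000 bp it was 6.83, 5.89 and 5.92 in lambs, against 7.23 and 5.20 in fetuses. The density did not increase at every step: from 550 to 800 bp to 850 to 1000 bp it was lower in all 3 lambs (4.67, 5.04 and 4.55), and in the widest group, 3050 to 5950 bp, fetus 1 had 6.94. Between the 550 to 800 bp and the 2050 to 3000 bp regions the gain was largest in fetus 1 and smallest in lamb 2. Lamb 2 was the densest of the 5 libraries in 43.8% of the narrowest regions, and fetus 1 was the densest in 47.5% of those of 2050 to 3000 bp. Library and width were thus linked within a stage as well as between stages.

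The lack of a partner mark went with low density only among wide regions. At 550 to 800 bp the H3K4me3-only median was 1.23, 1.17 and 1.02 times that of regions of the same width overlapping H3K27ac only in lambs, and 1.34 and 0.963 times in fetuses. At 3050 to 5950 bp the ratio was 0.654, 0.890 and 0.792 in lambs and 0.554 and 0.335 in fetuses. Narrow H3K4me3-only regions were therefore as dense as narrow regions with H3K27ac in 4 of 5 libraries and close to it in fetus 2, while wide ones were less dense in every library. Differences between these classes were not tested, since regions of one table are not replicates.

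**Figure D2:**
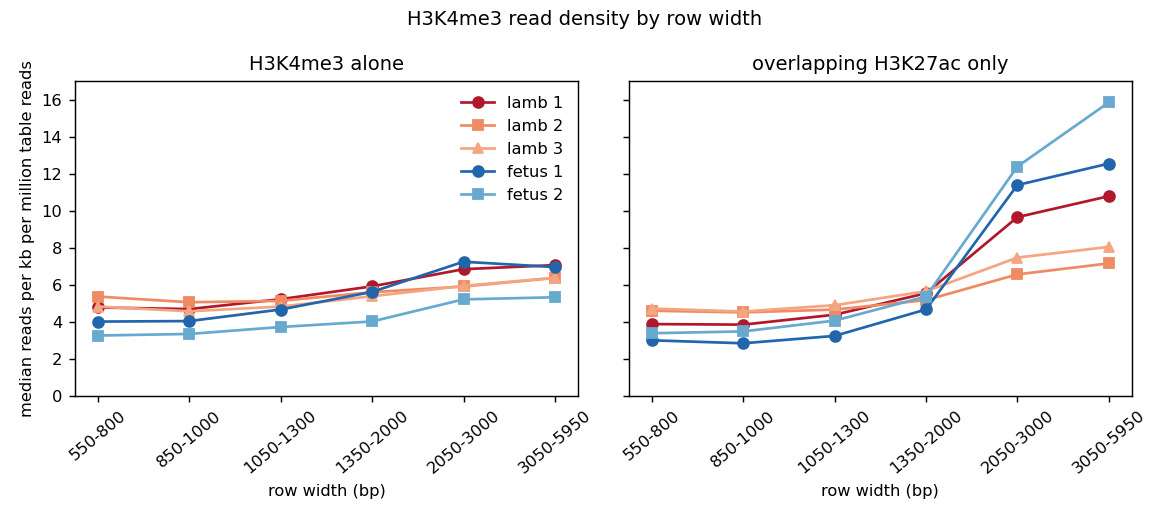
Median H3K4me3 read density by region width in each of the 5 libraries (lines), for H3K4me3-only regions (left) and regions overlapping H3K27ac only (right), in reads per kb per 1000000 table reads. In the widest bin the H3K4me3-only medians stay between 5.31 and 7.05, and the H3K27ac-overlapping ones run from 7.14 in lamb 2 to 15.8 in fetus 2.

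The lambs ranked the H3K4me3-only regions much alike, and the fetuses did not. Over all 14724 regions the Spearman correlation of density was 0.70, 0.75 and 0.72 for the 3 pairs of lambs, against 0.09 for the pair of fetuses. Fetus 1 and lamb 1 reached 0.45, above the pair of fetuses. These values are descriptions across regions of one table, which share the libraries' depth, mappability and width. The SD of the log2 ratio between the fetuses was 0.869, where counting error alone would give 0.171. Between lambs 2 and 3, the shallowest pair, it was 0.407, against 0.271 from counting error.

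The order of regions differed most between the fetuses where regions were narrow. The correlation between the fetuses was -0.38 at 550 to 800 bp, -0.30 at 850 to 1000 bp, -0.03 at 1050 to 1300 bp, 0.41 at 1350 to 2000 bp, 0.72 at 2050 to 3000 bp and 0.63 at 3050 to 5950 bp. The pairs of lambs stayed between 0.63 and 0.92 in all of these width groups. Among the 4364 narrowest regions, 3005 (68.9%) were above the median density in 1 fetus and not in the other, against 1029 (23.6%) between lambs 2 and 3. Among regions of 2050 to 3000 bp the shares were 21.6% between lambs 2 and 3 and 17.4% between the fetuses. A narrow region dense in fetus 1 thus tended to be sparse in fetus 2, and the reverse. The size of the fetal differences stayed above that of the lambs in wide regions too: at 3050 to 5950 bp the SD of the log2 ratio was 0.224 to 0.328 for pairs of lambs and 0.645 for the fetuses, with 0.0647 from counting error in the fetal pair.

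This pattern was also present outside the class. Among regions of up to 800 bp the fetal pair had a correlation of -0.23 where H3K27ac overlapped and -0.29 where H3K27me3 overlapped. Over all widths the values were 0.68 and 0.35, and 0.53 for the widest regions. Nothing used here states whether narrow regions were called in each library or on pooled reads, and the part of the calling in the fetal disagreement was not tested.

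**Figure D3:**
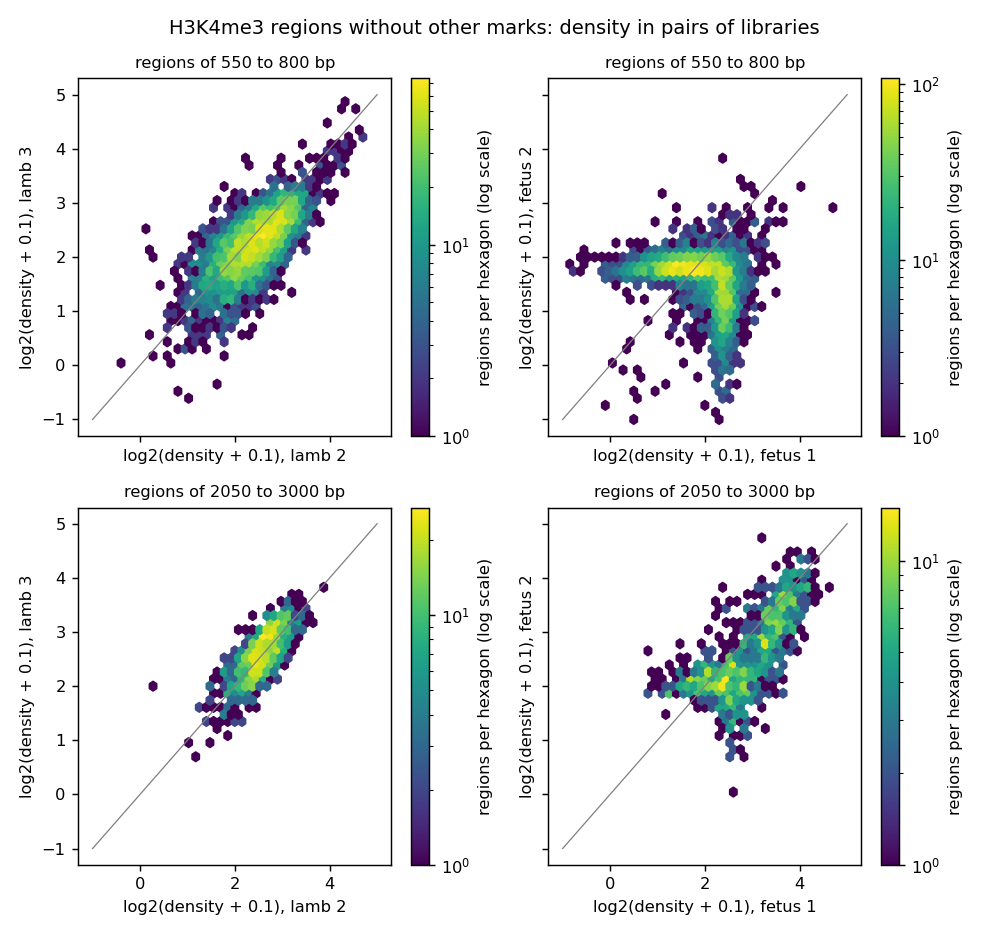
Density of H3K4me3-only regions as log2(density + 0.1) in lambs 2 and 3 (left) and in fetuses 1 and 2 (right), for regions of 550 to 800 bp (top) and 2050 to 3000 bp (bottom). Hexagons are coloured by the number of regions on a log scale and the line marks equal density. The narrow regions follow the line in the lambs and form 2 arms in the fetuses (Spearman correlation 0.71 and -0.38), and the wide ones follow the line in both stages (0.75 and 0.72).

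The position of the H3K4me3-only regions was not used by the rule beyond the lack of overlap. Their median distance was 11650 bp to the nearest H3K27ac region, 29250 bp to the nearest H3K27me3 region and 8950 bp to the nearest other H3K4me3 region. A partner mark lay within 1 kb of 2353 regions (16.0%), so the absence of the mark is a local one there. Another H3K4me3-only region lay within 10 kb of 4105 (27.9%). The median change, defined below, was -0.02 for regions within 1 kb of a partner mark and 0.23 for the 878 regions more than 50 kb away. The fetal correlation was 0.24 and -0.12 in these groups.

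Regions on each side of the rule's limits are given here as a description. The 90 regions that touched another mark without sharing a base had median densities of 4.77, 5.02 and 4.69 in lambs and 4.70 and 3.47 in fetuses. The 121 regions left out for sharing exactly 50 bp had 4.61, 4.69 and 4.71 in lambs and 5.06 and 3.38 in fetuses. At the width limit, 41 regions had the same width of 5950 bp, of which 16 counted as widest and 3 were H3K4me3-only. All 16 overlapped H3K27ac, so none of them could have been H3K4me3-only under another order of ties. Another order could, however, have counted the 3 among the widest and so left them out. The 3 had median densities of 7.68, 8.22 and 6.49 in lambs and 5.85 and 5.24 in fetuses. The 62 regions without a partner mark that were removed for width (6000 to 19350 bp) were denser in every library, with medians of 8.52, 8.69 and 7.83 in lambs and 7.09 and 6.27 in fetuses.

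Chromosome 14 stood out by its share of H3K4me3-only regions and by their width, though chromosomes 1, 2 and 3 held more of them. The width of the other classes there was not compared. H3K4me3-only regions were 33.4% of the 2520 H3K4me3 regions of chromosome 14, the highest share of the 26 autosomes, against 20.8% on chromosome 20, the lowest. Chromosome 14 held 160 of the 1292 regions wider than 2000 bp (12.4%) but 5.72% of all 14724. The window of 1 Mb with the most, chr14:46000001-47000000, held 78 H3K4me3-only regions among 144 H3K4me3 regions, where the median window that held any had 5. The next, chr14:61000001-62000000, held 64 of 106. A window with fewer, chr17:71000001-72000000, had a higher share, at 42 of 60. The first 1 Mb of the autosomes was also rich in them, with 300 of 805 regions (37.3%).

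The 3 widest H3K4me3-only regions, each 5950 bp, were all on chromosome 14. The region chr14:58031451-58037400 had densities of 7.88, 8.23 and 7.32 in lambs and 5.85 and 4.95 in fetuses. The region chr14:62014301-62020250 had 7.68, 8.22 and 6.49 in lambs and 5.95 and 5.31 in fetuses. On this density scale every lamb lay above both fetuses in the 2 regions, but with TMM-scaled reads lamb 3 lay below fetus 1 in the second. Neither change passed the test (log2 change 0.35 and 0.22, edgeR adjusted p = 0.607 and 0.770). The third, chr14:46861251-46867200, had 5.77, 6.30 and 4.79 in lambs and 3.53 and 5.24 in fetuses, with overlapping groups.

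Changes between stages were tested over all 66207 regions with edgeR's quasi-likelihood test and are given as log2 lamb over fetus. A region is called at an adjusted p under 0.05. Of the 14724 H3K4me3-only regions, 15 were called higher in lambs and 1 was called lower. Over all 66207 regions 0.115% were called, 0.0529% as higher and 0.0619% as lower. The H3K4me3-only regions were called in 0.102% as higher and 0.00679% as lower. At an unadjusted p under 0.05, 2120 were higher and 950 lower, together 20.9%, against 22.7% of all regions. The balance of direction differed, since over all regions 4820 were higher and 10180 lower.

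Their median log2 change was 0.14, against -0.04 over all regions, -0.12 where H3K27ac alone overlapped, 0.09 where H3K27me3 alone overlapped and -0.97 for the widest. With TMM-scaled reads, all 3 lambs lay above both fetuses in 3987 H3K4me3-only regions (27.1%, against 16.8% of all regions). They lay below both in 1732 (11.8%, against 21.9%). The median change went with width: it was 0.33 at 550 to 800 bp, 0.23 at 850 to 1000 bp, 0.06 at 1050 to 1300 bp, -0.07 at 1350 to 2000 bp, -0.35 at 2050 to 3000 bp and -0.20 at 3050 to 5950 bp. The narrow regions were thus where lamb values were higher, and this was not particular to the class. For regions overlapping H3K27ac only, the median change in the same width groups was 0.27, 0.22, 0.09, -0.18, -0.79 and -0.92.

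**Figure D4:**
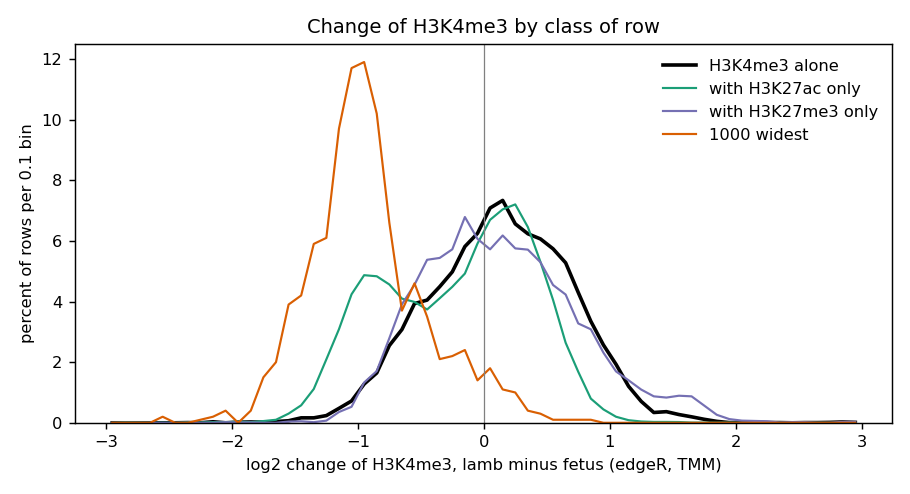
Share of regions (percent per bin of 0.1) by log2 change of H3K4me3, lamb minus fetus, for H3K4me3-only regions, regions overlapping only H3K27ac or only H3K27me3, and the 1000 widest. The H3K4me3-only curve is centred near its median of 0.14, and the curve of the widest regions near -0.97.

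The difference in change from the H3K27ac class could be tested over libraries. The log2 ratio of summed reads, H3K4me3-only over H3K27ac-overlapping regions, was -2.00, -1.62 and -1.86 in lambs, against -2.18 and -2.80 in fetuses. All 3 lambs lay above both fetuses, with means of -1.83 ± 0.19 (SD, n = 3) and -2.49 ± 0.44 (SD, n = 2). The difference was 0.66 (exact permutation p = 0.2, the smallest possible), 0.98 without fetus 1 and 0.35 without fetus 2. Among regions of at most 1000 bp it was 0.09 (exact permutation p = 0.8). In wider regions the classes stood further apart: at 3050 to 5950 bp the median change was -0.20 for H3K4me3-only and -0.92 for H3K27ac-overlapping regions, which was not tested over libraries.

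The count of calls depended on which libraries and which test were used. Among H3K4me3-only regions DESeq2 called 634 higher and 136 lower, against 8.23% of the whole table (2.59% higher and 5.64% lower). The authors' deposited table had 601 higher and 225 lower at its adjusted p under 0.05, where it had 8.98% of all regions past that threshold (2.37% higher and 6.62% lower). All 16 regions called by edgeR were among these 826 and made up 1.94% of them. With edgeR, 3356 were higher and 677 lower without fetus 1, against 13.2% and 12.7% of all regions. Without fetus 2 it called 2077 higher and 805 lower, against 10.0% and 4.48% of all regions. In both fits the lone fetus is assumed to vary as the lambs do. The counts were 101 and 134 without lamb 1 (0.875% and 6.07% of all regions) and 13 and 2 without lamb 3 (0.0649% and 0.0317%). Without lamb 2 edgeR called 0 in either direction, here and in the whole table, with 1694 higher and 185 lower at an unadjusted p under 0.05.

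The 15 increases were narrow regions, 13 of them at most 1000 bp wide (range 600 to 1750 bp). Their log2 changes ran from 1.74 to 4.25, and adjusted p over the 16 calls from 0.0258 to 0.0485. In 10 of the 15, lambs 2 and 3 were each at least 3-fold denser than lamb 1. That pattern was found in 47 of the 14724 regions (0.319%) and in 125 of all 66207 regions (0.189%). In all 15, lamb 1 nevertheless lay above both fetuses. These 2 lambs are the shallow libraries.

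The largest increase was at chr1:253130551-253131400, with 42, 107 and 156 reads in lambs 1 to 3 and 14 and 16 reads in fetuses 1 and 2. As densities these were 1.18, 9.62 and 14.7 in lambs and 0.439 and 0.323 in fetuses. Lamb 1 stood nearer to the fetuses than to the other lambs. The log2 change was 4.25 (SE 0.76, edgeR adjusted p = 0.0420), and 1.58 without lambs 2 and 3. An H3K27me3 region lay 3050 bp away.

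The same split between lambs recurred in the next increases. The region chr19:25683001-25683850 had densities of 2.39, 18.6 and 27.4 in lambs and 1.19 and 0.464 in fetuses (log2 change 4.11, SE 0.74, edgeR adjusted p = 0.0420). The region chr2:90532901-90533700 had 2.12, 19.9 and 28.3 in lambs and 0.932 and 0.900 in fetuses (3.97, SE 0.73, adjusted p = 0.0463). It lay 608750 bp from the nearest H3K27ac region. The region chr2:77980451-77981350 had 3.01, 19.0 and 33.2 in lambs and 1.27 and 1.16 in fetuses (3.70, SE 0.68, adjusted p = 0.0463).

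The remaining 2 of the 6 largest increases were far from either partner mark. This did not set them apart, since the nearest partner mark lay 71650 bp from chr19:25683001-25683850 and 155250 bp from chr2:77980451-77981350. The region chr3:123841251-123842100 had densities of 2.25, 12.5 and 20.0 in lambs and 1.16 and 0.383 in fetuses (log2 change 3.73, SE 0.70, edgeR adjusted p = 0.0469), and its nearest H3K4me3 neighbour lay 385300 bp away. The region chr9:64643051-64644250 had 1.72, 11.5 and 14.9 in lambs and 0.910 and 0.357 in fetuses (3.70, SE 0.68, adjusted p = 0.0466), and lay more than 1 Mb from any other region of the 3 marks, with an H3K27me3 region 1025200 bp away. Groups without overlap were a condition for naming these 6 regions. In each of them lamb 1 was the lowest lamb.

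The other called increases, looked at after their values were seen, included 5 in which lamb 1 was not set apart. At chr24:9529351-9530250 the densities were 8.30, 7.64 and 10.1 in lambs and 2.49 and 2.08 in fetuses (log2 change 1.74, SE 0.33, edgeR adjusted p = 0.0469). At chr25:3515801-3516400 they were 8.22, 13.8 and 9.21 in lambs and 2.53 and 1.66 in fetuses (2.12, SE 0.38, adjusted p = 0.0420). Both show all 3 lambs well above both fetuses. At chr1:21120751-21121400, which had the smallest adjusted p of the class (0.0258), they were 5.41, 4.94 and 12.3 in lambs and 0.820 and 0.527 in fetuses.

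The single decrease was a wide region. At chr5:41258451-41262900 (4450 bp) the reads were 246, 90 and 107 in lambs 1 to 3 and 1384 and 1095 in fetuses 1 and 2. The densities were 1.32, 1.54 and 1.93 in lambs and 8.28 and 4.22 in fetuses, so all lambs were alike and far below both fetuses. The log2 change was -2.16 (SE 0.35, edgeR adjusted p = 0.0285), and -2.29 without lambs 2 and 3. The nearest H3K27ac region lay 33900 bp away and the nearest H3K4me3 region 7250 bp away.

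**Figure D5:**
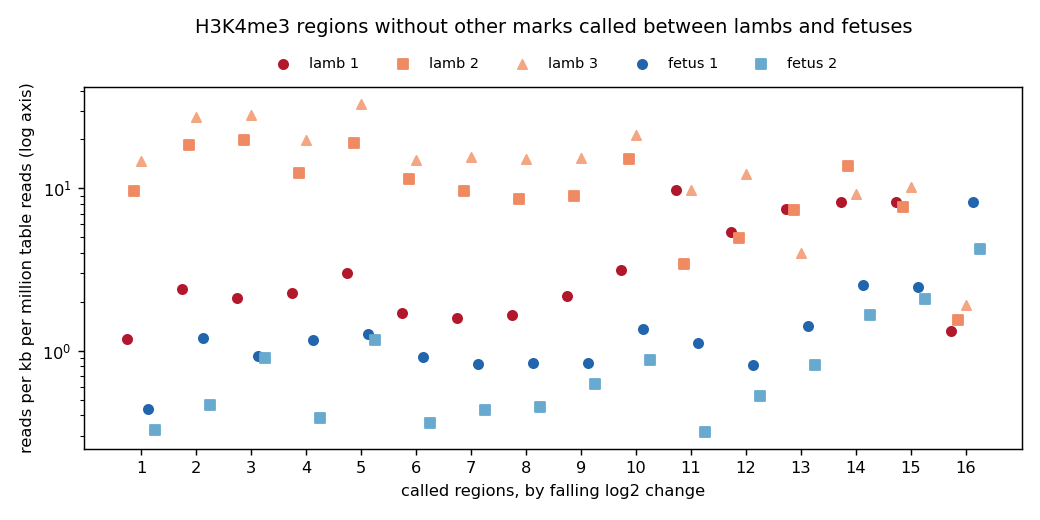
H3K4me3 read density of the 16 called H3K4me3-only regions in each library (log axis), in reads per kb per 1000000 table reads, ordered by falling log2 change. In the 10 regions on the left lambs 2 and 3 stand above lamb 1, and in the region on the right both fetuses (8.28 and 4.22) stand above all lambs.

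The densest H3K4me3-only regions were each led by particular libraries. At chr3:204815501-204816550 the density was 30.1, 29.9 and 24.9 in lambs and 29.1 and 153.9 in fetuses, so fetus 2 stood apart from the other 4 libraries, which were alike. At chr9:285801-286550 it was 67.4, 77.3 and 77.8 in lambs and 26.3 and 7.73 in fetuses, with no overlap between stages and an H3K27me3 region 700 bp away. At chr7:98453351-98454450 it was 11.6, 65.7 and 108.7 in lambs and 6.68 and 4.78 in fetuses, again with lamb 1 nearest to the fetuses. None of these 3 was called by edgeR (adjusted p = 0.0957, 0.0839 and 0.0645), while DESeq2 called all 3 (adjusted p = 0.0126, 0.00177 and 0.0301). With limma trend the chr9 and chr7 regions were called (adjusted p = 0.03035 and 0.04023) and the chr3 region was not (0.09601). The fourth, chr1:1-1200, begins at the first base of its chromosome and had 22.7, 12.7 and 14.1 in lambs and 45.7 and 21.0 in fetuses. Lamb 1 lay above fetus 2 on this scale but below it with TMM-scaled reads. It too was called lower by DESeq2 (adjusted p = 0.04942) and not by edgeR (0.108) or limma trend (0.09344).

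The 188 regions that were dense in all 5 libraries were wide, with a median of 2400 bp. The density they had to reach was 8.08, 5.99 and 6.42 in lambs and 9.45 and 11.4 in fetuses, which favours lower lamb values, so nothing is read from their change. Chromosomes 14 and 5 each held 23 of them and chromosome 3 held 18. Their median distance to H3K27ac, 10975 bp, was close to the 11650 bp of the whole class.

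Few regions could be tied to a gene, because the files name most promoters without coordinates. Coordinates in a promoter's name are those of its gene, so overlap was with the gene and not the promoter alone. Of 652 autosomal genes with such coordinates, 29 were overlapped by 27 H3K4me3-only regions. Regions overlapping H3K27ac only lay over 139, the widest over 33, and no H3K4me3 region over 425. Small RNA genes are frequent among the 652, and their share there was not counted. Their number among the 29 is therefore not read as a trait of the H3K4me3-only regions. Of the 29 genes, 26 encode small RNAs and 3 are copies named ACTB or HPRT. These are multi-copy sequences, so reads could have been placed at another copy. The 27 regions had median densities of 5.21, 4.69 and 4.76 in lambs and 4.86 and 4.61 in fetuses, and 9 of 27 had a positive change. The edgeR test called 0 of them, with 0 higher and 3 lower at an unadjusted p under 0.05, and DESeq2 called 1 lower.

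Among these genes, 5 were copies of U6 and 2 each of U1, U2 and U5, the small nuclear RNAs of the spliceosome, and 3 were 5S ribosomal RNA copies. At the U6 copy under chr16:4759951-4762050 the density was 11.4, 8.37 and 10.5 in lambs and 13.6 and 12.9 in fetuses, every lamb below both fetuses (log2 change -0.57, edgeR adjusted p = 0.308). At the U6 copy under chr24:2670501-2675450 it was 9.53, 9.51 and 10.2 in lambs and 8.35 and 8.83 in fetuses, and the log2 change was -0.01. A pair of regions lay over 3 copies of SNORD116, a small nucleolar RNA cluster that is imprinted in human and mouse. At chr18:1093101-1098000, over 2 of these copies, the density was 5.60, 6.81 and 5.93 in lambs and 6.56 and 2.13 in fetuses, where fetus 2 alone was low. The ACTB copy under chr24:38675201-38678550 was among the densest of the 27, with 12.7, 8.62 and 10.0 in lambs and 14.3 and 10.4 in fetuses, and an H3K27ac region lay 450 bp away.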

How the data were processed

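The authors deposited raw read counts per PeakRanger region and mark, per the file headers, with a p-value, its adjusted form and a signed fold change (positive where lambs were higher) from a test headed EDGE. They also deposited H3K4me3 promoter values, a scaled signal whose factor is not stated; only its ranks and names were used. Per the labels, CLC Genomics Workbench 7.0 mapped the reads to Oar_v3.1; bedtools 2.19.0, edgeR and MACS stand in the submitters' processing notes with no role. The input libraries have no column in these tables, so no input was subtracted. Nothing used here states whether regions were called per library or on pooled reads.

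Region starts counted from 0 were moved to 1-based positions, and overlap means 1 shared base. Ties in width were broken by genome order. Density is reads per kb per 1000000 table reads. Changes were fitted over all 66207 regions with edgeR 4.0.16 (quasi-likelihood, TMM, filterByExpr, which left out 0 of the 14724 H3K4me3-only regions; R 4.3.3), with Benjamini-Hochberg adjustment over the table and stage as the only term; the fit was tested on simulated data. DESeq2 1.42.0 and limma 3.58.1 (trend, log2 of CPM + 1) were alternatives. Single values per library were compared by exact two-sided permutation (scipy 1.17.1). Depth was 12482468 to 58333449 reads per library; region reads are not deduplicated by molecular identifiers, so counting error is a lower limit. The replicate numbers name different animals in the stages, per the titles, and were not paired. Deviations from the stage mean correlated at -0.09 for fetus 1 with lamb 1 and at -0.05 for fetus 2 with lamb 2. The deviations of 2 fetuses mirror each other, so these values cannot decide on pairing.

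The regions and lists were chosen with earlier results of these data known. Regions were named by rule: the 6 largest increases and decreases among called regions with at least 20 reads on average and no overlap of groups (1 decrease qualified), the 4 densest and the 3 widest. At the rule's limits many regions were tied, so these are given as groups. Regions were linked to genes only by overlap with the gene coordinates that some promoter names carry. No genome of the Oar_v3.1 build was used, so base composition and sequence were not analysed here.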

Additional observations from a re-analysis of the deposited data

How the results depend on the processing

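The calls rest on 2 unlike fetuses and on 3 lambs, 2 of them shallow. With edgeR, leaving out 1 library moved the number called higher between 0 and 3356 and the number called lower between 0 and 805. Without both shallow lambs it was 0 and 2 (0 and 2 of all 66207 regions, 344 and 53 at an unadjusted p under 0.05), in a fit of 1 lamb whose spread comes from the fetuses alone, so few calls could be made. Column totals called 51 higher and 1 lower (137 and 40 of all regions). RLE size factors called 0 and 0 (3 and 10 of all regions; 2350 and 778 at an unadjusted p under 0.05), and TMM factors from regions overlapping H3K27ac called 0 and 0 (0 and 6 of all regions; 2984 and 350 unadjusted). DESeq2 called 634 and 136 (1712 and 3737 of all regions), limma trend 159 and 26 (520 and 258). Overlap counted at 50% of the shorter region gave 15 and 2. The cause of these shifts was not tested.

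With the replicate block, which leaves out lamb 3, 52 were higher and 8 lower (129 and 42 of all regions), but the numbers do not pair the animals.

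The median change was positive in every setting listed: 0.36 with TMM on H3K27ac-overlapping regions and 0.32 with column totals, where the median of all regions was 0.19 and 0.15, and 0.15 to 0.30 with 1 library left out. The density ratio to H3K27ac-overlapping regions reversed to -0.0476 at widths up to 1000 bp and to -0.0794 without fetus 2, was at most 0.177 with 1 library left out and was 0.285 with mean densities. The region chr14:46861251-46867200 ranged from -0.10 (without fetus 1) to 0.64 (without fetus 2). The contrast of the widest regions, chosen after seeing the data, kept its sign in 11 settings.

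For the 7 named called regions, 62 of 91 pairs of region and setting kept the call, 29 lost it and 0 reversed. The kept pairs include the setting without a filter, which repeated the main fit because the filter left out 0 of these regions. They also include fits with a lone fetus, assumed to vary as the lambs do. All 7 regions lost the call with RLE size factors, with TMM factors from regions overlapping H3K27ac and without lamb 2. The fit without both shallow lambs, where few calls could be made, also counts among the losses. The median width was 1000 bp under every rule, with 16028 regions at 50% overlap, 12371 with no partner mark within 1 kb, 14786 with the widest kept and 14634 with touching regions left out, a rule added after seeing the data.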
